A study of Mus musculus with 6 samples.

Results

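The 10 genes described here encode cytochrome P450 enzymes of the Cyp2a, Cyp2b and Cyp3a subfamilies and were taken from the count table by symbol, 4 Cyp2a genes (Cyp2a4, Cyp2a5, Cyp2a12 and Cyp2a22), 3 Cyp2b genes (Cyp2b9, Cyp2b10 and Cyp2b13) and 3 Cyp3a genes (Cyp3a11, Cyp3a13 and Cyp3a25). They are 10 of the 24421 gene symbols in the table. All 10 had at least 1 count, and 9 of them were among the 12945 genes that had enough counts to be tested. RNA came from livers of male C57BL/6 mice aged 4 months, from 3 Sesn3 knockout (KO) and 3 wild-type (WT) samples. Mice of both genotypes had been fed for 4 weeks on a diet that drew 40% of its energy from fat, 40% from carbohydrate and 20% from protein, with cholesterol at 1.25% and sodium cholate at 0.5%. No samples on another diet were analysed here, so every level below is a level on this diet. How the Sesn3 allele was made, and in which cells it is lost, is not given in the sources used here.

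Cytochrome P450 enzymes of these subfamilies sit in the endoplasmic reticulum of hepatocytes, take electrons from P450 oxidoreductase and cytochrome b5, and hydroxylate drugs, plant compounds, steroids and bile acids. In mouse liver many of them are switched on by CAR (gene Nr1i3) and PXR (gene Nr1i2), nuclear receptors that bind DNA as partners of RXR and respond to foreign compounds and to bile acids. Several members also differ between the sexes under the control of pituitary growth hormone: Cyp2a4, Cyp2b9 and Cyp2b13 are female-predominant genes of mouse liver.

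The libraries held between 18882220 and 24098512 counts. Sesn3 was at 0.760, 0.694 and 0.689 CPM in the KO libraries, against 8.996, 11.62 and 10.41 CPM in the WT libraries, where CPM are counts scaled to library size with trimmed-mean (TMM) factors. Values given library by library are in the order of replicates 1 to 3. Of the 9 hepatocyte markers in the table none had 0 counts over all libraries. Their summed level ran from 107720 to 128157 CPM in KO and from 100586 to 162652 CPM in WT. Over the 9 hepatocyte markers the median log2 fold change was -0.51 and 2 estimates were positive. Serpina1c, a serum protease inhibitor gene, was called as lower and none as higher (edgeR), against 3.58% lower among all genes tested. At an unadjusted p under 0.05 there were 4 lower. For counts at that threshold, here and below, no share of all genes was computed. DESeq2 called 4 as lower, against 1061 over all genes. No hepatocyte marker was called without KO replicate 1, 2 or 3. The 8 stellate and fibroblast markers summed to 866 to 1153 CPM in KO, against 231 to 466 CPM in WT, the 8 macrophage markers to 2360 to 2876 CPM in KO, against 1008 to 2443 CPM in WT, and the 8 cholangiocyte markers to 113 to 135 CPM in KO, against 54.8 to 99.99 CPM in WT. Of these lists, 4 of 8 stellate, 2 of 8 macrophage and 1 of 7 tested cholangiocyte genes were called as higher and none as lower, against 3.36% higher among all genes tested. The stellate count was 0 without KO replicate 1, KO replicate 2 or WT replicate 3 and 1 without KO replicate 3 or with no low-count filter. The macrophage count was 0 without WT replicate 3 or any 1 of the KO libraries, 1 without WT replicate 2 and 5 without WT replicate 1. Over all genes, the fits without 1 library called between 48 and 504 as higher. DESeq2 called 6 stellate and 4 macrophage genes as higher, against 921 over all genes. None of 7 endothelial and 8 lymphocyte genes was called (edgeR; 1 higher and 1 lower in each at an unadjusted p under 0.05). No listed marker of these cells was at 0 over all libraries, and the part of such shifts in the P450 results was not tested. In bulk tissue, fewer cells of a type and less RNA per cell cannot be told apart.

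All 10 members had a match among the RefSeq promoter sequences (GRCm38.p6, 300 bases from 250 before to 50 after the start site). The sequences of 3 pairs are shown because in each pair 1 gene was called and its related copy was not, a difference that no exact test between the copies could put below p = 0.10, and that of Cyp3a11 as the most abundant member. Each is written 5′ to 3′ on the strand of its gene. In the Cyp2a4 and Cyp2a5 windows (chr7:26306942-26307241 and chr7:26835089-26835388, both on the plus strand) capitals mark the bases that differ between them.
Cyp2a4: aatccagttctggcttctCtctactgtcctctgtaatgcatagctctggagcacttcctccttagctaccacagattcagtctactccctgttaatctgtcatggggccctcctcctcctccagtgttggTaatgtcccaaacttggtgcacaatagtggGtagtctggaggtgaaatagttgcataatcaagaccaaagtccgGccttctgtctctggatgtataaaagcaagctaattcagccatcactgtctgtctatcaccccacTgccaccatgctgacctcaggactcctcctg
Cyp2a5: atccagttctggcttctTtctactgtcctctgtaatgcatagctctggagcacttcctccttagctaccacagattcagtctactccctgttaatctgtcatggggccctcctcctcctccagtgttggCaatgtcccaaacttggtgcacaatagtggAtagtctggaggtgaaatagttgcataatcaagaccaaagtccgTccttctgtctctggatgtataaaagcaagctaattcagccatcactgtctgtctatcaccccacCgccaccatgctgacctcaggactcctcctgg
Over 299 aligned bases these windows differed at 5, an identity of 98.3%.

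In the Cyp2a22 window (chr7:26939337-26939636, minus strand) and the Cyp2a12 window (chr7:27028840-27029139, plus strand) capitals again mark the bases at which this pair differs or has a gap, with an identity of 89.4%.
Cyp2a22: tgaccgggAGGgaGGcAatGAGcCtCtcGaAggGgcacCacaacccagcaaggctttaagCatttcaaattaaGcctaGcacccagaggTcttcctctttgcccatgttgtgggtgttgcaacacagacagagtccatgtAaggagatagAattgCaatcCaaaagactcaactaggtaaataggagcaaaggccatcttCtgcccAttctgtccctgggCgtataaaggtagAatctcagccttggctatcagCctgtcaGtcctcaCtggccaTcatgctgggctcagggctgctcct
Cyp2a12: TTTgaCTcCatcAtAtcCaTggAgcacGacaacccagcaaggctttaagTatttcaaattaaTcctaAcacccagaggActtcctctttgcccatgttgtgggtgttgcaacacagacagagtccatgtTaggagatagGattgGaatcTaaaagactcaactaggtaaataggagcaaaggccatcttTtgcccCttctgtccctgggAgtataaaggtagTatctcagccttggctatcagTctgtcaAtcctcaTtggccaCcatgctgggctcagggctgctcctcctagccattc
Between the pairs the windows were less alike, with 57.4% identity for Cyp2a4 and Cyp2a12.

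The Cyp2b10 window (chr7:25897408-25897707) and the Cyp2b9 window (chr7:26173159-26173458), both on the plus strand, are marked in the same way and had an identity of 73.4%, while the windows of Cyp2b9 and Cyp2b13 differed at 2 of 300 bases.
Cyp2b10: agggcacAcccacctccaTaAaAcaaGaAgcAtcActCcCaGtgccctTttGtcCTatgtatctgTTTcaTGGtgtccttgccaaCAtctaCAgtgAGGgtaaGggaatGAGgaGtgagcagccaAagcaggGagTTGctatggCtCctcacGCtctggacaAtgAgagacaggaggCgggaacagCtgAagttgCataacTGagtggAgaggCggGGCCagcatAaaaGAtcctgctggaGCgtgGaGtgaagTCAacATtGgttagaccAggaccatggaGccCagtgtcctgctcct
Cyp2b9: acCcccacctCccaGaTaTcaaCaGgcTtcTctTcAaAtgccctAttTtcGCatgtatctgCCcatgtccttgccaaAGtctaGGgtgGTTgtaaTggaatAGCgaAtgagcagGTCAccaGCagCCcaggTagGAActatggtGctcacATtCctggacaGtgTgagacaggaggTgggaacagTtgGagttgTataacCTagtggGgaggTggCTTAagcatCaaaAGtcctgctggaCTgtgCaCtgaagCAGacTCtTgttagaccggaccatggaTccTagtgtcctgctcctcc
In the Cyp3a11 window (chr5:145879805-145880104, minus strand) capitals mark matches to nuclear receptor half-sites (AGGTCA and AGTTCA) and to CAAAGTCC, a core of sites bound by HNF4A.
Cyp3a11: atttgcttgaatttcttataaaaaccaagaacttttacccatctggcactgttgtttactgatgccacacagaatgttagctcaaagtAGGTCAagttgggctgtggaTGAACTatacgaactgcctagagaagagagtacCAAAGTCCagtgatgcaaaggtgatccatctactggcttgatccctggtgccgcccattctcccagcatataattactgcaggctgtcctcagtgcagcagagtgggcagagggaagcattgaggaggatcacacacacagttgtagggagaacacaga
In a search of both strands, in which no matches overlapped each other, AGGTCA was found in the windows of Cyp2a4, Cyp2a5, Cyp2b9, Cyp2b13, Cyp3a11 and Cyp3a25, and in 16.3% of all 32851 promoter windows. The matches in Cyp2a4 and Cyp2a5 lay 30 and 29 bases after the start site. Those in the other members lay 138 to 176 bases before it. CAAAGTCC was found in those of Cyp2a4, Cyp2a5 and Cyp3a11 and in 1.42% of all windows, lying 55 bases before the start site in Cyp2a4 and 56 in Cyp2a5. AGTTCA was found in the window of Cyp3a11 alone among the members, and in 14.0% of all windows. TATAAA was found in those of the 4 Cyp2a genes and Cyp3a11 and in 13.6% of all windows, and TTCNNNGAA, the letters of STAT sites, in no member window and in 8.30% of all windows. The Cyp2b10 and Cyp3a13 windows held none of these letters. These are matches of letters and not measured binding sites.

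Of the 9 tested members, Cyp2a4, Cyp2b10 and Cyp2a22 rose in KO livers and none fell (edgeR quasi-likelihood test, Benjamini-Hochberg adjusted p at most 0.05 over all genes tested). At an unadjusted p under 0.05 the same fit gave 3 higher members and 1 lower, and DESeq2 called 3 higher and 1 lower, the lower one being Cyp2a5. Over all 12945 genes tested, edgeR called 6.94%, 3.36% as higher and 3.58% as lower. DESeq2 called 921 genes as higher and 1061 as lower over all genes. The median log2 fold change of the 9 tested members was 0.09, against 0.00 for all genes tested. No overlap between KO and WT libraries was seen for 4 of the 9 members, Cyp2a4, Cyp2a5, Cyp2a22 and Cyp2b10, and for 33.5% of all genes tested. The 3 Cyp3a genes did not pass. Library size without scaling factors moved the median of all genes by 0.21 (log2) and split the calls over all genes into 707 higher and 258 lower, in place of 435 and 463, and the same number of members was called.

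**Figure D1:**
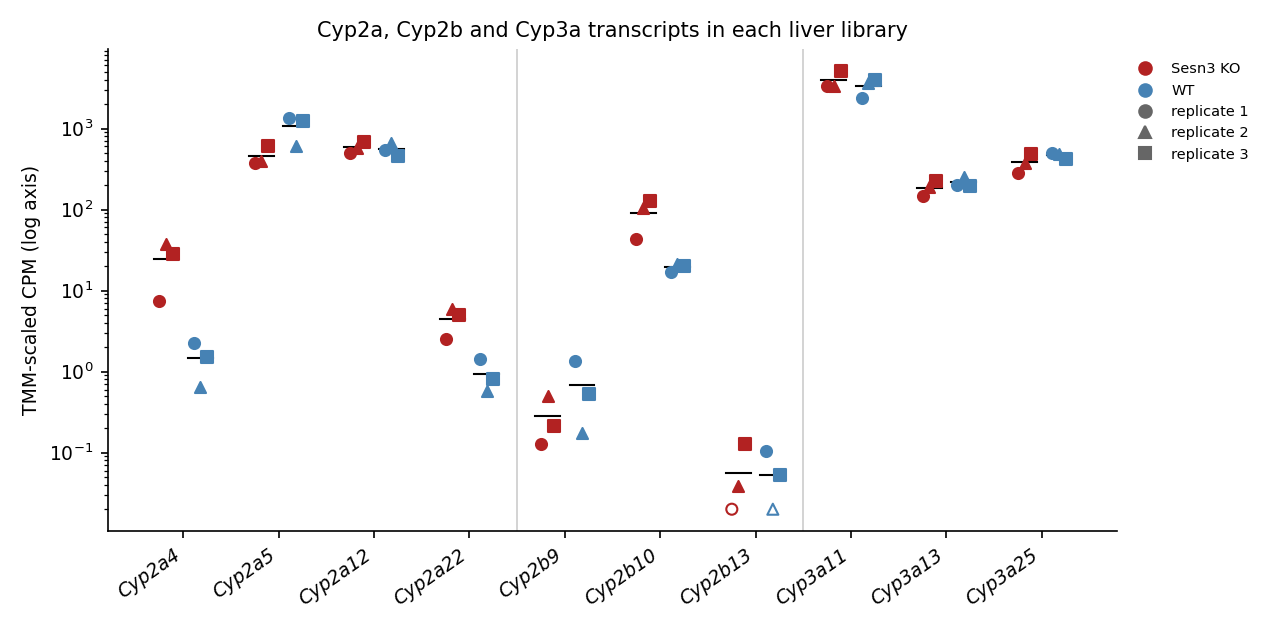
Levels of the 10 P450 genes in each library, in TMM-scaled CPM on a log axis, KO (red) left of WT (blue), with a marker shape for each replicate and a black line at each group mean. Open symbols at the bottom stand for 0 counts. For Cyp2a4, Cyp2a22 and Cyp2b10 all 3 KO libraries lie above all 3 WT libraries, and for Cyp2a5 all 3 lie below.

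**Figure D2:**
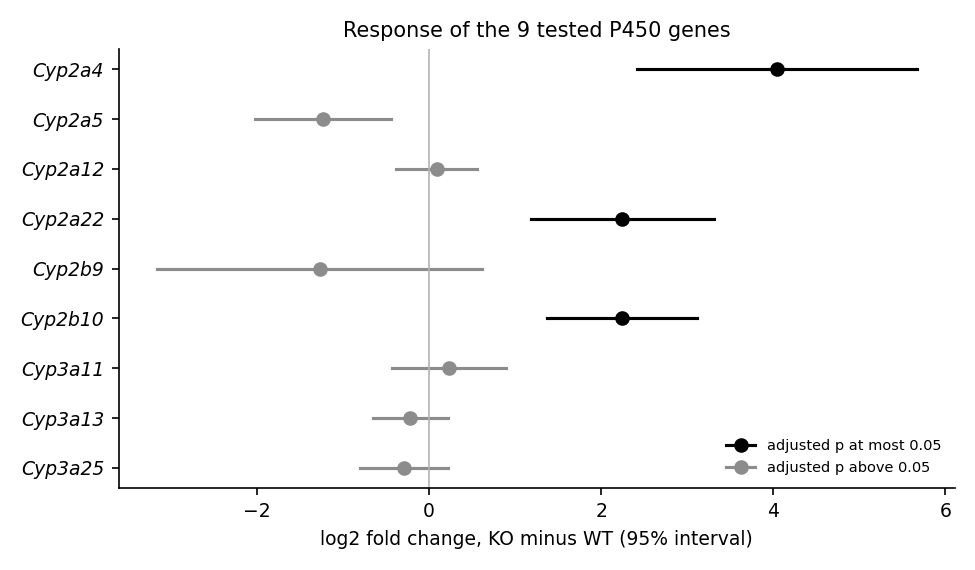
Log2 fold change of KO over WT for the 9 tested members, with unadjusted 95% intervals from the edgeR fit; black marks an adjusted p at most 0.05. The estimates run from -1.27 for Cyp2b9 to 4.04 for Cyp2a4, and the intervals of Cyp2a12, Cyp2b9 and the 3 Cyp3a genes include 0.

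The order of the levels was compared per kilobase of annotated exon, a scale that understates a gene whose annotation includes long extra exons. In KO livers Cyp3a11 led with 769 ± 202 CPM per kb, followed by Cyp2a5 with 220 ± 60.2, Cyp3a25 with 183 ± 49.97 and Cyp2a12 with 170 ± 27.1 CPM per kb (SD, n = 3 each). Lower down in KO came Cyp3a13 with 62.9 ± 12.8, Cyp2b10 with 43.3 ± 20.3, Cyp2a4 with 14.0 ± 8.85 and Cyp2a22 with 1.30 ± 0.510 CPM per kb. In WT livers Cyp3a11 had 654 ± 166, Cyp2a5 517 ± 193, Cyp3a25 225 ± 20.6, Cyp2a12 159 ± 30.4 and Cyp3a13 73.2 ± 10.4 CPM per kb. Cyp2b10 stood at 9.17 ± 1.07 and Cyp2a4 at 0.841 ± 0.463 CPM per kb in WT. Cyp2b9 and Cyp2b13 were below 1 CPM per kb in every library. In KO the ranges of Cyp2a5, Cyp3a25 and Cyp2a12 overlapped, as did those of Cyp3a13 and Cyp2b10 and those of Cyp2b10 and Cyp2a4. In WT Cyp3a11 overlapped with Cyp2a5, and from Cyp2a5 down to Cyp2a4 no neighbours overlapped.

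Cyp2a4 encodes a steroid hydroxylase that acts on testosterone. Its annotated span on chromosome 7 is 26307169 to 26315088 (mm10, plus strand). It had 7.43, 37.6 and 27.9 CPM in the KO libraries, against 2.25, 0.639 and 1.49 CPM in the WT libraries. Every KO library was above every WT library, and KO replicate 1 was the lowest of the KO libraries. The level was 16.4-fold higher in KO with a log2 fold change of 4.04 ± 0.69 (SE; edgeR adjusted p = 0.0224). The call was lost without KO replicate 2 (adjusted p = 0.0822), KO replicate 3 (0.0711) or WT replicate 3 (0.0835) and with limma-voom (adjusted p = 0.0983), while the log2 fold change stayed between 3.58 and 4.50 when any 1 library was left out.

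Cyp2a5, the mouse coumarin hydroxylase and a nicotine-metabolizing enzyme, is a close copy of Cyp2a4 (chromosome 7, 26835305 to 26843548, plus strand). It had 375, 394 and 600 CPM in the KO libraries, against 1356, 613 and 1244 CPM in the WT libraries. WT replicate 2 lay just above the highest KO library, and the other WT libraries lay well above it. The mean was 456 ± 125 CPM in KO and 1071 ± 401 CPM in WT (SD, n = 3 each), a log2 fold change of -1.23 (SE 0.34) with an edgeR adjusted p = 0.0698, above the threshold. DESeq2 called it (adjusted p = 0.00288), and so did the edgeR fit without WT replicate 2 (log2 fold change -1.51, adjusted p = 0.0137).

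Cyp2a4 and Cyp2a5 therefore had estimates of opposite sign in the same livers. Cyp2a4 made up 1.94%, 8.71% and 4.45% of the summed counts of both genes in the KO libraries, against 0.166%, 0.104% and 0.120% in the WT libraries. The exact binomial 95% intervals, which cover counting error only, ran from 1.67% to 2.25% in KO replicate 1, the lowest KO library, and from 0.120% to 0.223% in WT replicate 1, the highest WT library. The log2 ratio of Cyp2a4 to Cyp2a5 counts (0.5 added to each) averaged -4.49 ± 1.13 in KO and -9.58 ± 0.322 in WT (SD, n = 3 each). That difference of 5.09 had an exact two-sided permutation p = 0.10, the smallest that 3 libraries against 3 allow, and 0.129 after adjustment over the 9 pairs of genes compared in this way. Of the distinct 50-base words in the annotated transcripts of Cyp2a4, 36.1% also occur in those of Cyp2a5, and how reads that match both were counted is not given in the sources used here. The summed level, to which reads counted for either gene contribute alike, was 382, 431 and 628 CPM in the KO libraries, against 1359, 614 and 1245 CPM in the WT libraries. Fitted as 1 gene, the pair had a log2 fold change of -1.16 that did not pass (edgeR adjusted p = 0.0823).

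**Figure D3:**
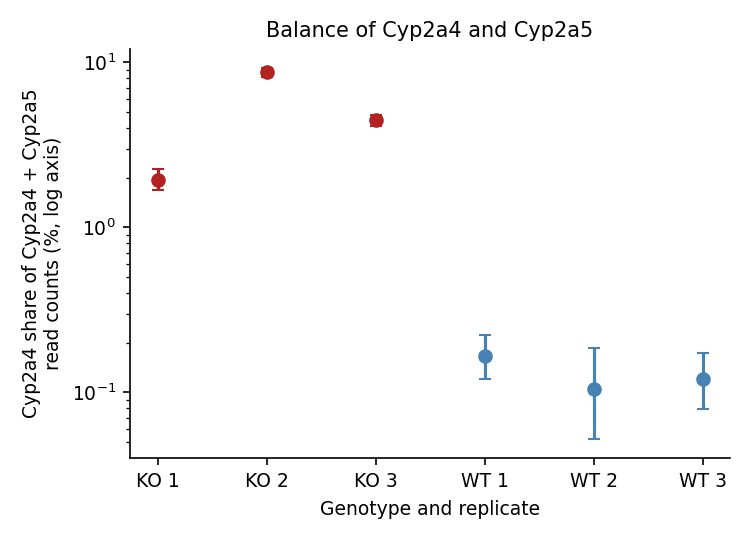
Cyp2a4 counts as a percentage of the summed Cyp2a4 and Cyp2a5 counts in each library, on a log axis, with exact binomial 95% intervals that cover counting error only. The 3 KO libraries (red) sit between 1.94% and 8.71%, and the 3 WT libraries (blue) between 0.104% and 0.166%.

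Cyp2a22 and Cyp2a12 form the other closely related pair. Cyp2a22 (chromosome 7, 26931631 to 26939384, minus strand) was scarce, at 2.49, 5.86 and 5.04 CPM in the KO libraries, against 1.41, 0.581 and 0.801 CPM in the WT libraries. These levels came from 59, 152 and 117 counts in KO and 27, 10 and 15 counts in WT. The groups did not overlap, and KO replicate 1 was again the lowest KO library. The level was 4.75-fold higher in KO with a log2 fold change of 2.25 ± 0.46 (SE; edgeR adjusted p = 0.0329). The call was lost without KO replicate 2 (adjusted p = 0.130), KO replicate 3 (0.0943) or WT replicate 3 (0.112) and with limma-voom (0.0570).

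Cyp2a12, a steroid hydroxylase that also rehydroxylates secondary bile acids in mice, was abundant (chromosome 7, 27029081 to 27037375, plus strand). It had 497, 580 and 684 CPM in the KO libraries, against 540, 662 and 453 CPM in the WT libraries. The groups overlapped, and the log2 fold change was 0.09 (unadjusted 95% interval, here and below, -0.38 to 0.56, edgeR adjusted p = 0.815). The estimate turned to -0.03 without KO replicate 3 or without WT replicate 3. Of the 50-base words of Cyp2a22 transcripts, 20.2% also occur in those of Cyp2a12. The log2 ratio of Cyp2a22 to Cyp2a12 counts averaged -7.11 ± 0.503 in KO and -9.24 ± 0.777 in WT (SD, n = 3 each; exact two-sided permutation p = 0.10, adjusted 0.129).

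Summed over the 4 genes, the Cyp2a subfamily held 882, 1017 and 1317 CPM in the KO libraries, against 1900, 1276 and 1699 CPM in the WT libraries. KO replicate 3 lay within the WT range. Cyp2a12 was the leading Cyp2a transcript by counts in all 3 KO libraries, with 51.9% to 57.0% of the subfamily's counts. In WT it led in replicate 2, with 51.9%, while Cyp2a5 led in WT replicates 1 and 3, with 71.4% and 73.2%.

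Cyp2b10 is the gene most often used as a readout of CAR in mouse liver. It lies on chromosome 7 from 25897620 to 25926624 (plus strand). It had 43.8, 104 and 127 CPM in the KO libraries, against 16.9, 21.3 and 19.9 CPM in the WT libraries. The WT libraries were close together, the KO libraries were spread, and KO replicate 1 was the lowest of these while still above every WT library. The level was 4.73-fold higher in KO with a log2 fold change of 2.24 ± 0.37 (SE; edgeR adjusted p = 0.0201). Among the 3 called members it was the one that limma-voom also called, and its call was lost without KO replicate 2 (adjusted p = 0.0855), KO replicate 3 (0.0617) or WT replicate 3 (0.0751). KO replicate 1 was the lowest KO library for every one of the 10 members, those that did not rise included. Its summed stellate marker level was 1125 CPM, against 1153 and 866 CPM in KO replicates 2 and 3. In the same order the hepatocyte sums were 107720, 108628 and 128157 CPM and the endothelial sums 346, 282 and 164 CPM. Macrophage sums were 2860, 2360 and 2876 CPM, cholangiocyte sums 120, 113 and 135 CPM and lymphocyte sums 11.3, 7.98 and 9.09 CPM. The bearing of these sums on the members was not tested.

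The female-predominant Cyp2b9 and Cyp2b13 were close to absent. Cyp2b9 (chromosome 7, 26173411 to 26210661) had 3, 13 and 5 counts in the KO libraries, against 26, 3 and 10 counts in the WT libraries. The groups overlapped, and the log2 fold change of -1.27 (95% interval -3.17 to 0.62) did not pass (edgeR adjusted p = 0.366). Without WT replicate 1, which held most of the WT counts, the estimate was -0.32. Cyp2b13 (chromosome 7, 26061497 to 26096197) had 0, 1 and 3 counts in KO, against 2, 0 and 1 counts in WT, too few to test, and its ratio of summed counts was 1.01 (95% counting interval 0.171 to 6.88). Of the 50-base words of Cyp2b13, 27.3% occur in transcripts of other genes. Cyp2b10 held 99.5% to 99.7% of the Cyp2b counts in KO libraries and 92.0% to 99.2% in WT libraries, so the subfamily sum of 44.0, 104 and 127 CPM in the KO libraries, against 18.4, 21.5 and 20.4 CPM in the WT libraries, was nearly that of Cyp2b10.

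Cyp3a11, the main Cyp3a enzyme of mouse liver and a classical PXR target, was the most abundant member (chromosome 5, 145854426 to 145879964, minus strand). It had 3320, 3330 and 5103 CPM in the KO libraries, against 2376, 3634 and 3983 CPM in the WT libraries. The groups overlapped, with 1 KO library above the WT range and 1 WT library below the KO range. The log2 fold change was 0.23 (95% interval -0.43 to 0.90) and did not pass (edgeR adjusted p = 0.646). Without KO replicate 3 it was -0.0022. The interval includes 0 and excludes a rise as large as the 2.24 estimated for Cyp2b10.

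The other Cyp3a members also overlapped between the groups. Cyp3a13 (chromosome 5, 137892932 to 137921619, minus strand) lies apart from the rest of the Cyp3a cluster. It had 147, 188 and 223 CPM in the KO libraries, against 203, 251 and 195 CPM in the WT libraries (log2 fold change -0.22, 95% interval -0.65 to 0.21, edgeR adjusted p = 0.500). Cyp3a25 (chromosome 5, 145977194 to 146009618, minus strand) had 279, 380 and 487 CPM in the KO libraries, against 498, 487 and 418 CPM in the WT libraries. Only KO replicates 1 and 2 were below all WT libraries, and the log2 fold change of -0.29 (95% interval -0.80 to 0.22) did not pass (edgeR adjusted p = 0.440). Of the 50-base words of Cyp3a25, 25.2% also occur in Cyp3a59, which was at 72.8 ± 25.8 CPM in KO and 44.5 ± 16.7 CPM in WT (SD, n = 3 each; edgeR adjusted p = 0.268). The summed level of the 3 members was 3746, 3897 and 5812 CPM in the KO libraries, against 3076, 4372 and 4596 CPM in the WT libraries.

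Cyp2b10 and Cyp3a11 are read together as CAR and PXR targets, and the ratio of their counts was higher in each KO library than in any WT library. The log2 ratio of Cyp2b10 to Cyp3a11 counts averaged -5.53 ± 0.642 in KO and -7.40 ± 0.256 in WT (SD, n = 3 each). The exact two-sided permutation test gave p = 0.10, the smallest this design allows (0.129 adjusted over 9 pairs). The ratios of Cyp3a11 to Cyp3a25 and of Cyp3a11 to Cyp3a13 overlapped between the groups (exact permutation p = 0.20 each, adjusted 0.200).

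The Cyp2a and Cyp2b genes lie in 1 cluster on chromosome 7, and no 2 of the risers were next to each other in it. From Cyp2b10 to Cyp2a12 it spans 1140 kb and holds 15 genes of the table, of which 7 had 0 counts in every library and 7 were tested. Cyp2a4 lies between Cyp2b9, which was close to absent, and a stretch of genes at 0 that includes Cyp2b23 and Cyp2b19. Cyp2a22 lies between Cyp2a5 and Cyp2a12, neither of which rose. Next to Cyp2a5 is Cyp2g1, a P450 known from the olfactory epithelium, named here after its values were seen. It had 5, 0 and 7 counts in the KO libraries, against 29, 28 and 50 counts in the WT libraries, and was lower in KO with a log2 fold change of -3.49 ± 0.76 (SE; edgeR adjusted p = 0.0394). That call was lost when any 1 of the KO libraries or WT replicate 3 was left out (adjusted p between 0.0775 and 0.124).

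**Figure D4:**
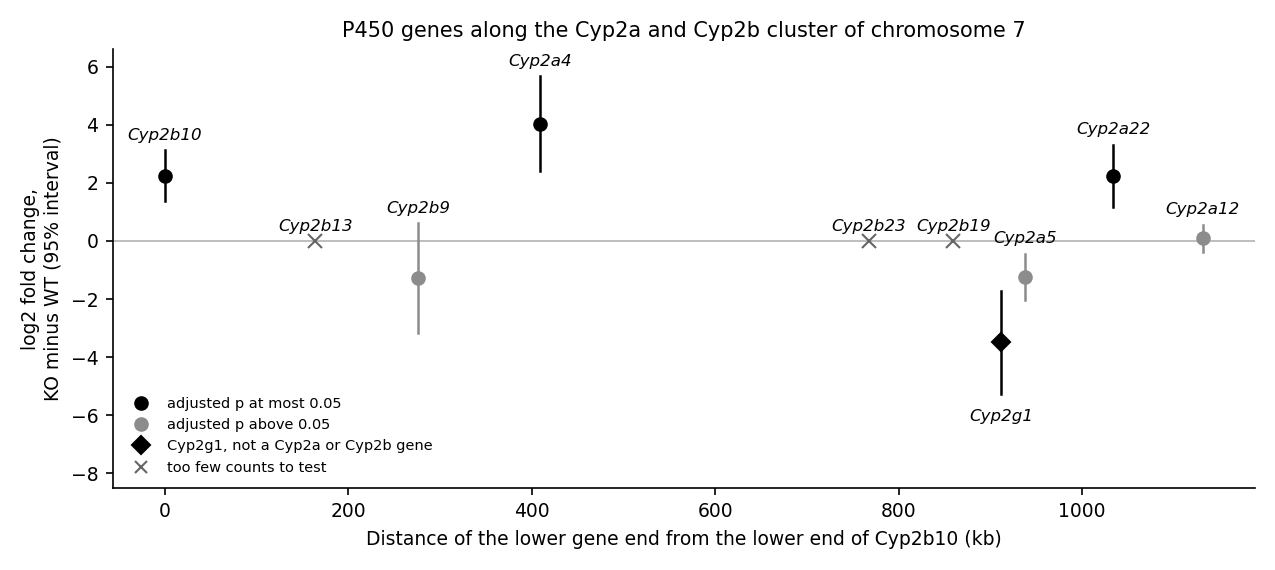
Log2 fold change of KO over WT, with unadjusted 95% intervals, for the P450 genes of the chromosome 7 cluster, placed by distance in kb from the lower end of Cyp2b10. Black marks an adjusted p at most 0.05, the diamond is Cyp2g1, and crosses at 0 on the vertical axis are genes with too few counts to test. Estimates on both sides of 0 are found along the 1140 kb, with Cyp2a4 at 4.04 and Cyp2a5 at -1.23.

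In the Cyp3a cluster on chromosome 5 2 of the rarer relatives, Cyp3a44 and Cyp3a57, were counted mainly in KO libraries. Cyp3a44, another female-predominant gene, had 32, 9 and 14 counts in the KO libraries, against 0, 0 and 3 counts in the WT libraries. Cyp3a57 had 9, 16 and 5 counts in KO, against 0, 0 and 1 counts in WT. Summed over libraries the ratios were 13.9 (95% counting interval 4.50 to 69.3) for Cyp3a44 and 22.7 (3.77 to 925) for Cyp3a57. Words shared with other transcripts were not computed for these genes, so reads from abundant relatives such as Cyp3a11 were not examined. Both were below the filter on low counts. With no such filter they did not pass (edgeR adjusted p = 0.0765 for Cyp3a44 and 0.0663 for Cyp3a57). The female-predominant Cyp3a16 and Cyp3a41a had at most 2 counts in any library and Cyp3a41b, Cyp2b19 and Cyp2b23 had 0. Among the female-predominant genes Cyp2a4 thus rose, Cyp3a44 had a positive estimate that did not pass with no filter (log2 fold change 3.69) and Cyp2b9 a negative one that did not pass.

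None of the 14 genes listed as CAR, PXR and their partners was called in either direction (edgeR). At an unadjusted p under 0.05 there were 2 higher and 2 lower. DESeq2 called 2 lower, against 1061 lower over all genes, and limma-voom called none. Their median log2 fold change was -0.08, against 0.00 for all genes tested. Of the 14 estimates 3 were positive, against 6510 of the 12945 genes tested. Groups did not overlap for 4 of the 14, against 33.5% of all genes tested. The list summed to 958 to 1150 CPM in KO, against 1258 to 1515 CPM in WT. Nr1i3, which encodes CAR, had 9.38, 23.2 and 27.4 CPM in the KO libraries, against 56.2, 33.4 and 37.5 CPM in the WT libraries. All KO libraries lay below all WT libraries, and the log2 fold change of -1.08 (95% interval -2.01 to -0.16) did not pass after adjustment (edgeR adjusted p = 0.141), though DESeq2 called it (adjusted p = 0.0428). Nr1i2, which encodes PXR, had 59.1, 80.1 and 80.9 CPM in the KO libraries, against 57.5, 59.9 and 57.3 CPM in the WT libraries (log2 fold change 0.33, edgeR adjusted p = 0.191), and passed with library size only (adjusted p = 0.0488). Rxra, the shared partner, was at 463 ± 90.5 CPM in KO and 647 ± 129 CPM in WT (SD, n = 3 each; edgeR adjusted p = 0.214). Its KO libraries all lay below its WT libraries.

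Of 17 tested liver transcription factors of P450 genes none was called by edgeR or by limma-voom, with 1 higher and 4 lower at an unadjusted p under 0.05. DESeq2 called 1 higher and 3 lower, against 921 higher and 1061 lower over all genes. The median log2 fold change was -0.29, and 2 of the 17 estimates were positive. Groups did not overlap for 5 of the 17, against 33.5% of all genes tested. The 18 genes listed summed to 1394 to 1702 CPM in KO, against 1817 to 2381 CPM in WT. Hnf4a, a nuclear receptor needed for adult hepatocyte gene expression, was at 528 ± 24.8 CPM in KO and 581 ± 138 CPM in WT (SD, n = 3 each; edgeR adjusted p = 0.698), and its sign turned with library size only and without WT replicate 2.

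Among 36 tested genes listed as other CAR and PXR targets, 6 rose and 7 fell, against 3.36% higher and 3.58% lower of all genes tested. The median log2 fold change was 0.32, against 0.00 for all genes tested. DESeq2 called 6 higher and 10 lower, against 921 higher and 1061 lower over all genes. The higher genes with the smallest p were led by Cyp2c55, a P450, at 37.9 ± 12.8 CPM in KO and 5.70 ± 1.13 CPM in WT (6.63-fold higher, edgeR adjusted p = 0.00612; SD, n = 3 each). Akr1b7, an aldo-keto reductase, was 33.5-fold higher (edgeR adjusted p = 0.00693). The efflux pump gene Abcc4 was 4.41-fold higher (edgeR adjusted p = 0.00733). Abcb1a, which encodes another efflux pump, was at 22.5 ± 1.69 CPM in KO and 7.20 ± 2.41 CPM in WT (3.12-fold, edgeR adjusted p = 0.0139; SD, n = 3 each), and did not pass when any 1 of the KO libraries or WT replicate 3 was left out (adjusted p of 0.0503 to 0.0625). The glucuronosyltransferase gene Ugt1a9, which shares exons with its Ugt1a neighbours, was 2.89-fold higher (edgeR adjusted p = 0.0108) and did not pass without KO replicate 2 (0.0505) or WT replicate 3 (0.0510).

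The lower genes with the smallest p were 4 members of the Cyp2c subfamily and a carboxylesterase. Cyp2c50 was 9.24-fold lower (edgeR adjusted p = 0.00429), Cyp2c54 22.5-fold lower (0.00606) and Cyp2c37 9.21-fold lower (0.0102), the last of which did not pass without KO replicate 2 (0.0570). Cyp2c29, the most abundant of them, was at 598 ± 124 CPM in KO and 2033 ± 687 CPM in WT (3.40-fold lower, edgeR adjusted p = 0.0181; SD, n = 3 each), and did not pass without KO replicate 1 (0.0644) or KO replicate 2 (0.0954). Ces2a, the carboxylesterase, was 2.62-fold lower (edgeR adjusted p = 0.0118), with 0.0746 without KO replicate 2. P450 genes listed as targets of the same receptors thus stood on both sides, with Cyp2b10 and Cyp2c55 higher and these Cyp2c genes lower in KO. Without KO replicates 1, 2 and 3 in turn, 4, 3 and 4 genes of this list were higher and 4, 2 and 7 lower. Without WT replicate 3 there were 3 higher and 5 lower. Over all genes these fits, in the same order, called 144, 48, 130 and 132 as higher and 151, 53, 131 and 160 as lower.

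The list of electron transfer and heme supply genes had 3 lower and no higher genes among 18 tested (edgeR). Whether each of them serves the members described here was not tested. Of all genes tested, 3.58% were called as lower and 3.36% as higher. At an unadjusted p under 0.05 there were 1 higher and 11 lower, with no share of all genes computed at that threshold. DESeq2 called 1 higher and 8 lower, against 921 higher and 1061 lower over all genes, and limma-voom called 3 lower. The median log2 fold change was -0.48, and 12 of the 18 genes had groups that did not overlap, against 33.5% of all genes tested. Cyb5b, a cytochrome b5 of the outer mitochondrial membrane, had 206, 148 and 168 CPM in the KO libraries, against 420, 452 and 367 CPM in the WT libraries (2.37-fold lower, edgeR adjusted p = 0.0109). Alad, an early enzyme of heme synthesis, was 1.57-fold lower (edgeR adjusted p = 0.0320) and did not pass with library size only (0.0632). Cyb5b did not pass without KO replicate 2 (0.0659) or KO replicate 3 (0.0503), and Alad did not pass in any fit with 1 library left out. The rate-limiting enzyme of that pathway, Alas1, did not pass, at 131, 398 and 328 CPM in the KO libraries, against 372, 461 and 694 CPM in the WT libraries (log2 fold change -0.83, edgeR adjusted p = 0.263). Por, the P450 oxidoreductase, had 370, 957 and 1136 CPM in the KO libraries, against 603, 667 and 614 CPM in the WT libraries (log2 fold change 0.39, edgeR adjusted p = 0.561). KO replicate 1 was the lowest KO library for Por and Alas1, as it was for Nr1i3 and for every member. Without KO replicates 1, 2 and 3 in turn, 1, 0 and 0 genes of this list passed as lower, against 151, 53 and 131 over all genes. Without WT replicate 3 there was 1, against 160 over all genes. Por and Alas1 stand in this list and in that of the other targets.

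**Figure D5:**
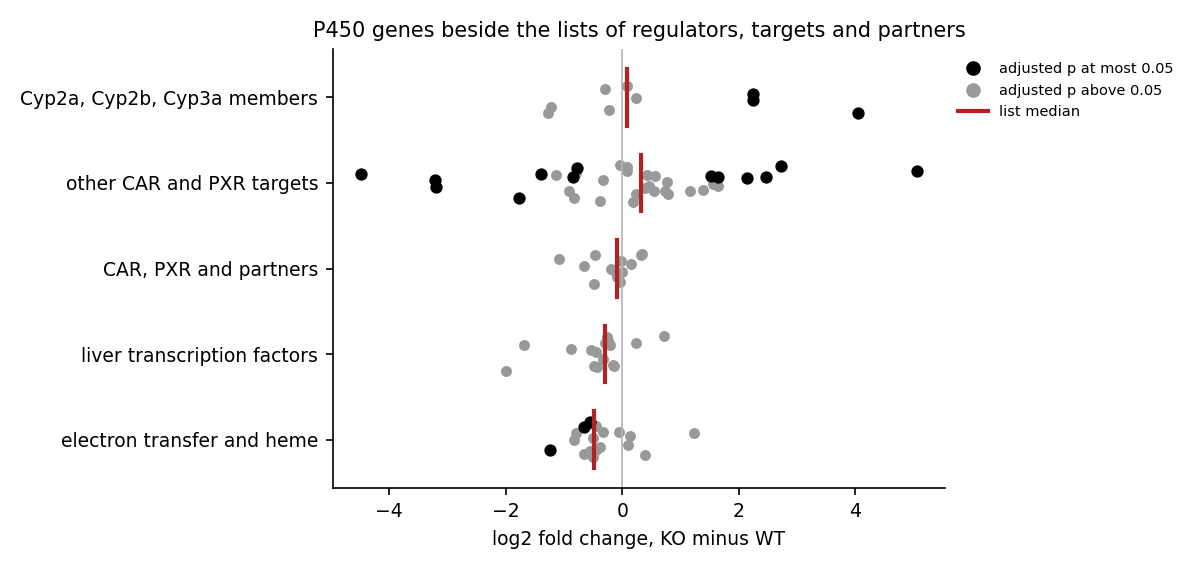
Log2 fold change of KO over WT for each tested gene of 5 lists, with black points for an adjusted p at most 0.05, grey points for the others and a red line at each list's median; the vertical spread within a list is for display only. The medians run from -0.48 for electron transfer and heme genes to 0.32 for the other CAR and PXR targets, with 6 higher and 7 lower called genes among the targets, 3 higher among the members, 3 lower among the electron transfer and heme genes and none in the other lists.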

How the data were processed

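The data were the counts that the authors deposited for 6 liver libraries, whole numbers by gene symbol with no normalization. Tools listed in the submitters' processing notes are edgeR 3.20.8, Subread 1.5.3, featureCounts and STAR 2.5, and the listed build is mm10. The sources used here do not give the annotation, the strand setting or the handling of reads that match several genes. Library construction followed an Illumina TruSeq kit, per the labels' protocols.

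KO was tested against WT with edgeR 4.0.16 (R 4.3.3). Genes passed filterByExpr at a minimum count of 10 and a minimum total of 15, libraries were scaled by TMM, and glmQLFit was robust. The quasi-likelihood F-test was two-sided, p-values were adjusted by Benjamini-Hochberg over all 12945 genes tested, and the threshold was 0.05. A standard error is the size of the log2 fold change over the square root of F. Levels are TMM-scaled CPM. Replicates were numbered in accession order. The labels do not say that they are separate animals, and p-values measure the spread between these samples, which may be technical. Other settings tried were DESeq2 1.42.0, limma-voom (limma 3.58.1), scaling by RLE, by upper quartile or by library size only, a filter of 1 CPM in 3 libraries or none, dispersion without robust fitting, and fits without each library in turn. The fitting code was also run on counts simulated from the means and dispersions of these data, with results not reported here. Gene positions and exon lengths came from GENCODE mouse release 21, and promoters from RefSeq. Promoter pairs were aligned with Biopython 1.88. Transcript words of 50 bases were compared on both strands, since the read length is not given in the sources used here.

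All 10 members are named. Of the other lists, called genes were named by rule, with up to 5 targets in each direction, and Nr1i3, Nr1i2, Rxra, Hnf4a, Por and Alas1 whatever their result. A called gene of the electron transfer and heme list is not reported here by name. Cyp3a59, Cyp3a44, Cyp3a57 and Cyp2g1 were named after their values were seen. The members and lists were chosen with earlier results of these data known.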

Additional observations from a re-analysis of the deposited data

How the results depend on the processing

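The direction of Cyp2a4, Cyp2a22 and Cyp2b10 was the same under the 14 alternatives that kept each gene as its own row, and all 3 passed with the other scaling factors, the other filters, no robust dispersion and DESeq2. The number of higher members was 1 with limma-voom and between 0 and 3 when 1 library was left out. The number of lower members was 1 with DESeq2 and 0 or 1 when 1 library was left out. Over all genes, library size only gave 707 higher and 258 lower and DESeq2 gave 921 and 1061, and leaving out 1 library gave 48 to 504 higher and 53 to 475 lower. Among the estimates that changed sign, Cyp2a12 ranged between -0.0343 and 0.24 and Cyp3a11 between -0.0022 and 0.39 when 1 library was left out, both turning without KO replicate 3 and Cyp2a12 also without WT replicate 3 (-0.0262). Hnf4a was at 0.088 with library size only and ranged between -0.25 and 0.073 when 1 library was left out, turning without WT replicate 2. Cyp2a4 was at -1.16 when its counts were summed with those of Cyp2a5, which by construction follows Cyp2a5, the holder of most of the counts. The cause of the other changes was not tested. The log2 ratios of the subfamily sums moved by less than the spread between replicates under every scaling factor and without each library, that of Cyp3a (0.16) turning to -0.07 without KO replicate 3. No paired analysis was possible because the labels give no replicate numbers. Fewer libraries lower the power of the fits that leave 1 out. Depth limits Cyp2b9, Cyp2b13, Cyp3a44 and Cyp3a57, which had at most 32 counts in any library, and counting intervals cover counting error only.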
